A study of Mus musculus with 8 samples.

Results

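Integrins, the laminins and fibronectin they bind, and the adaptors and kinases that gather at focal adhesions were followed in bulk RNA-seq of the lumbar spinal cord of 8 male mice with an ALS transgene. The members are 46 genes given by name, taken by symbol from 55291 genes in the count table: 24 integrin subunits (the receptors), 11 matrix ligands (10 laminin chains and *Fn1*) and 11 adaptors and kinases. Of these, 45 were among the 19470 genes that passed the filter on low counts, and the exception was *Itgb6*. The comparison asks what deleting *Ager*, which encodes RAGE, a receptor of glycated proteins and alarmins, in *Cx3cr1*-expressing cells does to transcripts of the whole cord.

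All 8 mice were C57BL/6J males that carried the human SOD1G93A transgene and a knock-in of tamoxifen-inducible Cre at the *Cx3cr1* locus on a single allele. All received 5 intraperitoneal injections of 0.2 µg of tamoxifen, at 12 weeks of age per the labels, which also give an age of 120 days at collection. The paper instead places the sequenced cords at the humane endpoint (end-stage) and gives another age for tamoxifen, so the disease stage behind these values is uncertain. The 4 *Ager*-deleted mice (SOD1G93A Ager fl/fl Cx3cr1Cre/+; E1776, E5231, E5248 and E5568) were compared with 4 Cre-expressing controls (SOD1G93A Ager+/+ Cx3cr1Cre/+; E5386, E5642, E6578 and E6732). The *Cx3cr1* promoter drives Cre in microglia and related myeloid cells, whereas the RNA came from all cells of the cord, and no mouse without the SOD1G93A transgene was in the comparison. Wherever a value is given for every mouse, the deleted mice and the controls follow in the order just named.

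Integrins are heterodimers of an α and a β subunit that span the plasma membrane and bind matrix proteins or counter-receptors on other cells. Inside the cell, talin and kindlin bind the β tail and switch the receptor to its active state, and vinculin, paxillin, p130Cas, ILK and parvin then couple it to actin and to the kinases FAK and Src. Laminins are trimers of an α, a β and a γ chain and are core parts of the basement membranes around vessels, under the meninges and around Schwann cells. In the spinal cord, laminin receptors sit on astrocyte endfeet and endothelium, and leukocyte integrins sit on microglia and on infiltrating cells.

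Counts per mouse summed to between 31148047 and 40324897, and 3 counts, taken as the limit of detection, corresponded to 0.0729 to 0.0975 CPM (read counts scaled to a common library size). *Ager* was at 0.889, 1.51, 1.02 and 1.34 CPM in deleted mice and at 1.53, 2.22, 2.18 and 2.41 CPM in controls. All controls were above all deleted mice (log2 fold change of deleted over control −0.81, SE 0.22; adjusted p = 0.252 by edgeR's exact test), and some transcript remained in every deleted cord. All markers listed for astrocytes (10), oligodendrocytes (10), neurons (16) and lumbar Hox identity (6) passed the filter. Some controls stood apart: the sum of 40 skeletal muscle markers was 1763 CPM in E5386 and 2620 CPM in E5642 against 259 to 276 CPM in the other 6 mice, the adipocyte transcript *Fabp4* reached 109 CPM in E5386, and the liver transcript *Alb* reached 452 CPM in E6732.

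By edgeR's exact test, adjusted over all genes tested by the Benjamini-Hochberg method, 0 members were below the threshold of 0.05, beside 0.0719% of all genes. The same held in edgeR's quasi-likelihood test (0.00514% of all genes called) and when dispersions were estimated as common and tagwise (0.401% of all genes). At an unadjusted p under 0.05, the exact test returned 1 of 45 members (*Itgb8*) beside 4.26% of all genes, and the quasi-likelihood test returned 2 (*Itgb8* and *Bcar1*) beside 6.71%. *Itgb8* was also the only tested member whose mice did not overlap between genotypes, a pattern that 3.88% of all genes tested showed in either direction and 1.91% with the deleted mice lower. The 4 against 4 design cannot give a two-sided exact permutation p below 0.0286.

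The class median furthest from 0 was that of the matrix ligands. The median log2 fold change was −0.08 over 23 receptor subunits, −0.17 over 11 matrix ligands and 0.02 over 11 adaptors and kinases, against 0.01 over all genes tested. Of the receptors 16 lay below 0, of the ligands 8 and of the adaptors 4, beside 9348 of all 19470 genes tested. The median size of the change, sign aside, was 0.10 over the members and 0.09 over all genes. By class it was 0.10 for receptors, 0.17 for ligands and 0.03 for adaptors and kinases. For 32 of 45 members the 95% interval of the log2 fold change lay within ±0.5, namely 16 receptors, 6 ligands and 10 adaptors. Over all genes tested this held for 12745 of 19470. These medians and counts describe the classes and carry no test.

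**Figure D1:**
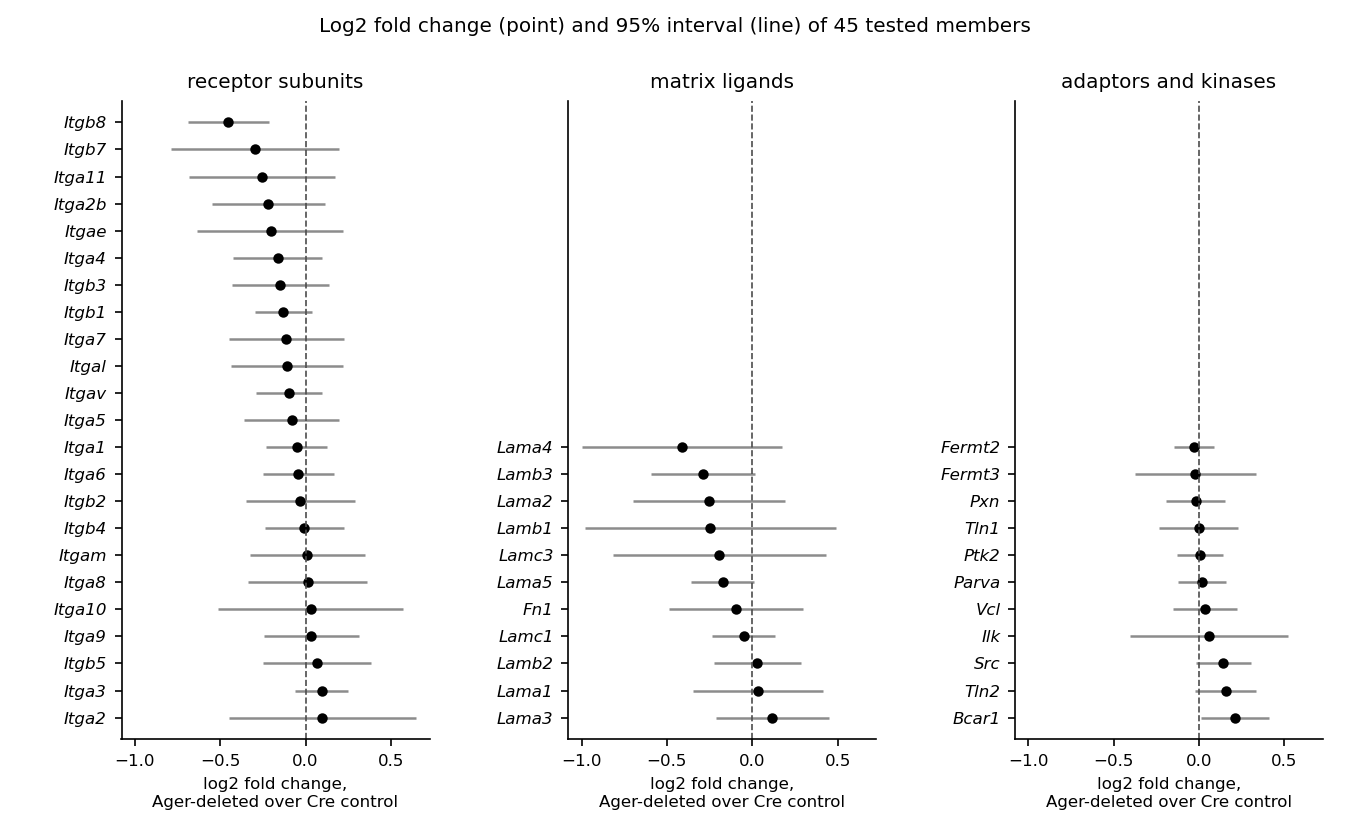
Log2 fold change of *Ager*-deleted over control mice (points, x axis) with its 95% interval (lines) for the 45 tested members, with receptors, matrix ligands and adaptors and kinases in separate panels. *Itgb8* lies lowest, at −0.45, and the intervals of *Itgb8* and *Bcar1* are those that leave out 0.

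*Itgb8* encodes the β subunit that pairs with αv and binds latent TGF-β, and in the nervous system it is known from astrocytes, neural progenitors and oligodendrocyte-lineage cells. It lies on the reverse strand of chromosome 12, at 119158022 to 119238802 (GRCm38). The *Itgb8* level was 208, 174, 174 and 160 CPM in the deleted mice. In the controls it was 208, 280, 263 and 228 CPM. The groups separated by a narrow margin, since the highest deleted mouse (E1776, 207.7 CPM) and the lowest control (E5386, 208.3 CPM) were nearly level. The mean was 179 ± 20.3 CPM in deleted mice against 245 ± 32.5 CPM in controls (SD, n = 4 each), which is 26.9% lower. The log2 fold change of *Itgb8* was −0.45 (SE 0.11, 95% interval −0.69 to −0.21). The exact permutation test gave p = 0.0286, the smallest it can give, and edgeR's exact test gave p = 0.000236 (adjusted p = 0.0999). By quasi-likelihood in edgeR, *Itgb8* had an adjusted p of 0.705.

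Each of the mice at that margin decided the call of *Itgb8*. Without the deleted mouse E1776 its log2 fold change was −0.53 (edgeR's exact test, adjusted p = 0.0495), and 0.0506% of all genes were called. Without the control E5386 it was −0.53 (edgeR's exact test, adjusted p = 0.00988), and 0.365% of all genes were called. E1776 was the highest deleted mouse and E5386 the lowest control, so leaving out either one widens the difference by construction. Calls of *Itgb8* made without either mouse therefore carry no test. Leaving out any other single mouse gave no call of *Itgb8*, and without both E5386 and E5642 its log2 fold change was −0.46 (adjusted p = 0.157, edgeR). Astrocyte markers summed to 13894 to 19484 CPM in deleted mice and to 15911 to 18045 CPM in controls, so those ranges overlapped. *Gfap* alone made up much of that sum (6643 to 10908 CPM in deleted mice, 8146 to 9674 CPM in controls), so the sum tells little of the other astrocyte markers. Oligodendrocyte markers overlapped as well (21599 to 23988 against 21669 to 24151 CPM). The part of either cell type in the *Itgb8* level was not tested. In whole cord, fewer cells of a type and less RNA per cell cannot be told apart.

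RefSeq promoter windows on GRCm38.p6, each with 250 bases before and 50 after the annotated start, were held for 29 of the 46 members. Those of *Itgb8*, the member with the largest difference between genotypes, and of *Lamb1* and *Lama2*, laminin chains whose levels are set out further on, are given 5′ to 3′ on the gene's strand. Capitals mark a CCAAT box (CCAAT) or a GC box (GGGCGG), searched on both strands, so that a match on the other strand reads ATTGG or CCGCCC.
Itgb8: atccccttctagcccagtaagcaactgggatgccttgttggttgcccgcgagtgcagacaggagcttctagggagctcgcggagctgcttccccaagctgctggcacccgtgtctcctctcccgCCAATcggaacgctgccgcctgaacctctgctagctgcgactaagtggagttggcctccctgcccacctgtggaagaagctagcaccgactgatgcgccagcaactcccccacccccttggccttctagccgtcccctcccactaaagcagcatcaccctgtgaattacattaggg
Lamb1: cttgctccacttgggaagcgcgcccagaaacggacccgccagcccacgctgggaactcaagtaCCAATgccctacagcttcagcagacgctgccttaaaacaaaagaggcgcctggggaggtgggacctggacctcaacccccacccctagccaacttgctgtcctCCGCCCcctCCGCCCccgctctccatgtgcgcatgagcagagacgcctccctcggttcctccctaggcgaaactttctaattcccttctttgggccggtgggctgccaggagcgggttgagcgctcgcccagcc
Lama2: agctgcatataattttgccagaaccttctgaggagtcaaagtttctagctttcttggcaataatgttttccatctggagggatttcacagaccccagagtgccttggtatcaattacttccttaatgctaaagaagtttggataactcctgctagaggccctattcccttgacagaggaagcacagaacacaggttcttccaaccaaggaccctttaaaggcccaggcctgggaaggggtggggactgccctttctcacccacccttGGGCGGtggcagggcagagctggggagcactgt
The *Itgb8* window, chr12:119238227-119238526 on the reverse strand, holds 1 CCAAT box and 0 GC boxes, and 60.7% of its bases are G or C. The *Lamb1* window, chr12:31265043-31265342 on the forward strand, holds 1 CCAAT box and 2 GC boxes at 63.7% G or C. The *Lama2* window, chr10:27616893-27617192 on the reverse strand, holds 0 CCAAT boxes and 1 GC box at 50.3% G or C. Among 32851 mouse promoter windows of the same length, 37.4% hold a CCAAT box and 35.7% a GC box, so these matches are common ones. The *Itgb8* and *Lama2* windows lie inside the gene spans of the GENCODE annotation, which reach 119238802 and 27619758. RefSeq and GENCODE thus place the starts of these genes differently.

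Among the receptors, levels per kilobase of exon spanned from the broadly expressed β subunits down to *Itga2*, *Itga8*, *Itga11* and *Itgae*. The length counts every annotated exon base of a gene, so ranks of genes with long exons that are not used here are uncertain. *Itgb5*, which pairs with αv and binds vitronectin, led with a mean of 53.9 CPM per kb over the 8 mice. *Itgb1*, the shared partner of most α subunits, followed at 44.9 CPM per kb, and *Itgb2*, the β chain of leukocyte integrins, at 26.8 CPM per kb. The ranges of *Itgb5* and *Itgb1* over mice overlapped, and those of *Itgb1* and *Itgb2* did not. Next came *Itgb8* (19.2 CPM per kb), *Itgav*, its αv partner (14.4 CPM per kb), and *Itga6*, an α chain of laminin receptors (12.2 CPM per kb), each overlapping the one before it. *Itga3*, *Itga7*, *Itgb4*, *Itgam* and *Itga5* lay between 8.65 and 4.82 CPM per kb, and the range of *Itga6* stood clear above that of *Itga3*. *Itgae*, the α chain that marks resident lymphocytes of epithelia, was the lowest tested subunit at 0.272 CPM per kb.

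**Figure D2:**
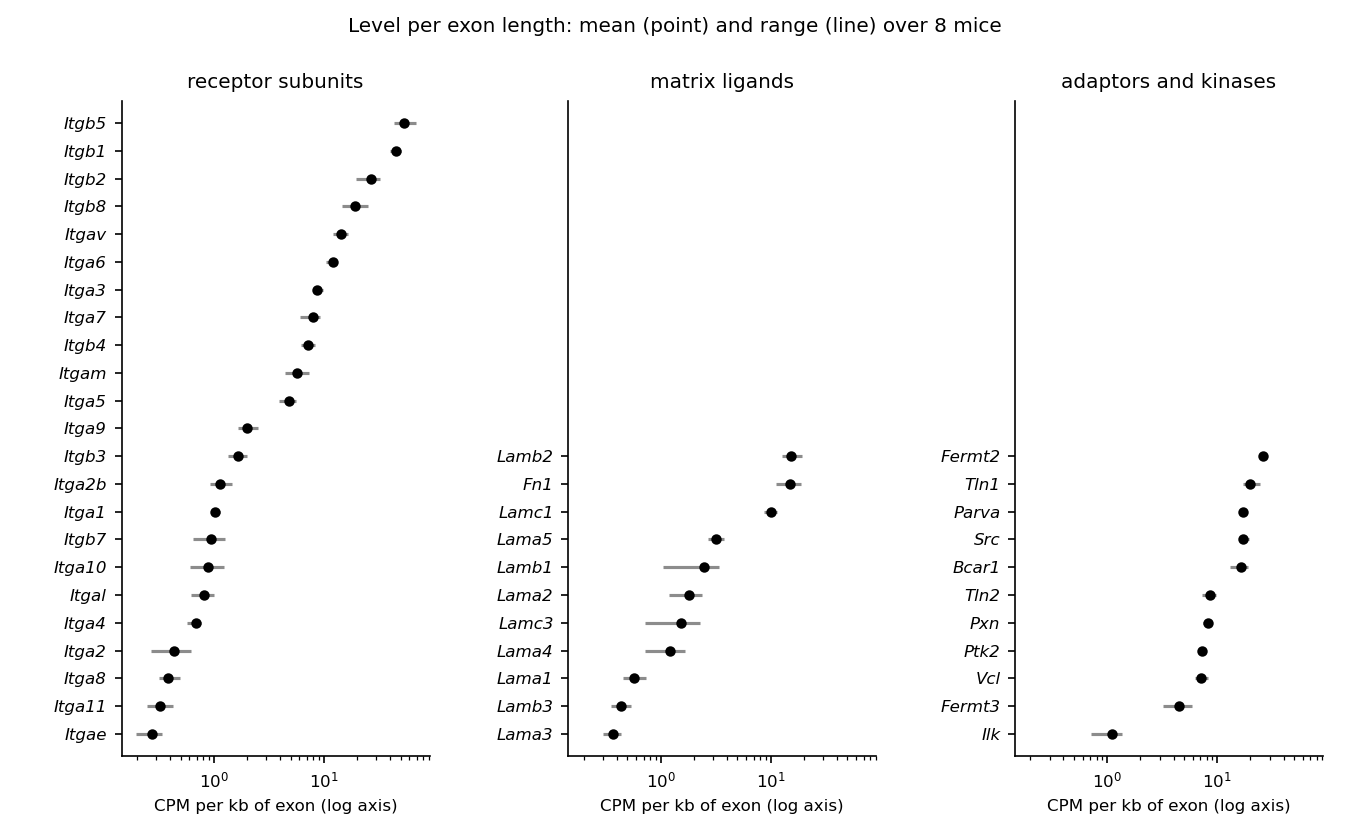
Level per kilobase of exon (log x axis, CPM per kb) of the members in separate panels for receptors, matrix ligands and adaptors and kinases, with the mean (point) and range (line) over the 8 mice. *Itgb5*, *Lamb2* and *Fermt2* lead their panels at 53.9, 15.5 and 25.9 CPM per kb.

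Laminin-binding receptors pair *Itga3*, *Itga6* or *Itga7* with *Itgb1*, and *Itga6* also with *Itgb4*. *Itga6* was at 108 ± 13.1 CPM in deleted mice and 112 ± 9.37 CPM in controls, and *Itga3* at 51.0 ± 4.17 against 47.8 ± 1.90 CPM (SD, n = 4 each). *Itga7* ranged from 49.3 to 74.8 CPM in deleted mice and from 55.9 to 75.1 CPM in controls, so the groups overlapped. *Itgb4*, which anchors Schwann cells and epithelia to laminin, was at 50.2 ± 5.22 against 50.5 ± 6.66 CPM. *Itgb1* was at 175, 195.4, 167 and 163 CPM in deleted mice and at 177, 201, 185 and 204 CPM in controls. Of its controls, 2 lay above every deleted mouse, and the exact permutation test gave p = 0.114.

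Receptors of fibronectin, vitronectin and other ligands with an RGD motif include *Itga5*, *Itga8* and *Itgav*. *Itgav* was at 176, 152, 142 and 129 CPM in deleted mice and at 161, 161, 155 and 164 CPM in controls. The controls of *Itgav*, the partner of *Itgb8*, thus fell inside the range of the deleted mice. *Itgb5* showed the same arrangement, with 242, 228, 158 and 155 CPM in deleted mice around 176 to 201 CPM in controls. *Itga5*, the α chain of the classic fibronectin receptor, was at 23.1 ± 4.61 against 24.5 ± 1.122 CPM (SD, n = 4 each). *Itgb3*, the β chain of endothelium and platelets, was at 9.19 ± 0.325 against 10.2 ± 1.83 CPM (SD, n = 4 each). *Itga2b*, its platelet partner, was at 5.78 ± 0.675 against 6.71 ± 1.22 CPM, while 10 platelet markers summed to 8.13 to 16.2 CPM in deleted mice and 10.2 to 23.3 CPM in controls. *Itgb6*, an epithelial partner of αv, had 0, 1, 1 and 2 counts in deleted mice and 16, 4, 2 and 4 counts in controls. No fold change is given for it, and its highest count was in E5386, the cord with raised muscle and adipocyte transcripts.

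The remaining subunits bind collagen, tenascin or receptors on other cells. They are given here together with *Itga8*, and the groups overlapped for all of them. The collagen receptor subunit *Itga1* was at 18.7 ± 1.65 CPM in deleted mice and 19.4 ± 0.915 CPM in controls (SD, n = 4 each), and *Itga2*, found on platelets and epithelia, was at 3.19 ± 0.627 against 2.97 ± 1.05 CPM. *Itga10*, a chondrocyte collagen receptor whose exons overlap another gene on the same strand over 33.5% of their bases, was at 4.61 ± 1.61 against 4.51 ± 0.887 CPM. *Itga4*, which binds vascular adhesion molecules and fibronectin on lymphocytes and monocytes, was at 9.01 ± 1.27 against 10.1 ± 0.845 CPM. *Itga9*, a tenascin receptor, was at 15.6 ± 2.83 against 15.2 ± 1.23 CPM, and *Itga8*, which binds nephronectin, at 2.85 ± 0.220 against 2.83 ± 0.548 CPM. *Itgae* was at 1.16 ± 0.217 against 1.34 ± 0.185 CPM. None of these subunits passed the test, and no mouse was extreme for all of them.

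Leukocyte integrins showed no separation of the genotypes. *Itgam*, the α chain of a complement receptor on microglia, was at 30.7, 36.8, 22.3 and 24.8 CPM in deleted mice and at 33.8, 26.3, 25.3 and 28.3 CPM in controls. *Itgb2*, its β partner, was at 93.4, 97.8, 59.4 and 72.9 CPM against 89.9, 85.5, 73.2 and 81.6 CPM. Both were highest in E5231 and lowest in E5248, as were *Itgal*, the α chain of the lymphocyte integrin, and *Fermt3*, the kindlin of blood cells. *Itgal* ranged from 4.09 to 6.55 CPM in deleted mice and from 5.13 to 6.02 CPM in controls, and *Fermt3* from 18.7 to 34.3 against 24.6 to 28.7 CPM. The sum of 18 microglia and macrophage markers had the same extremes, 4151 CPM in E5231 and 2310 CPM in E5248, against 3109 to 3519 CPM in controls, and its part in these values was not tested. The 95% intervals of the log2 fold changes of these 4 genes lay between −0.44 and 0.35. *Itgam* shares 68.7% of its exon bases with another gene model on the same strand, so its level is uncertain.

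The subunits with the largest differences after *Itgb8* were low. *Itgb7*, a β chain of gut-homing lymphocytes, was at 2.13, 3.48, 1.78 and 2.07 CPM in deleted mice and at 2.32, 2.96, 2.83 and 3.501 CPM in controls (log2 fold change −0.30, SE 0.22). *Itga11*, a collagen receptor of fibroblasts, was at 1.47, 1.83, 1.27 and 1.499 CPM against 2.16, 1.54, 1.43 and 2.09 CPM (log2 fold change −0.26, SE 0.19). With 1 mouse left out, the log2 fold change of *Itgb7* ran from −0.54 without E5231 to −0.18 without E5248, and that of *Itga11* from −0.36 without E5231 to −0.17 without E5386. For both, the groups overlapped and the adjusted p in edgeR's exact test was 1. Over all 23 tested subunits, the deleted mouse E5568 was the lowest of 8 mice in 11 and E5248 in 5, while E5231 was the highest in 6.

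**Figure D3:**
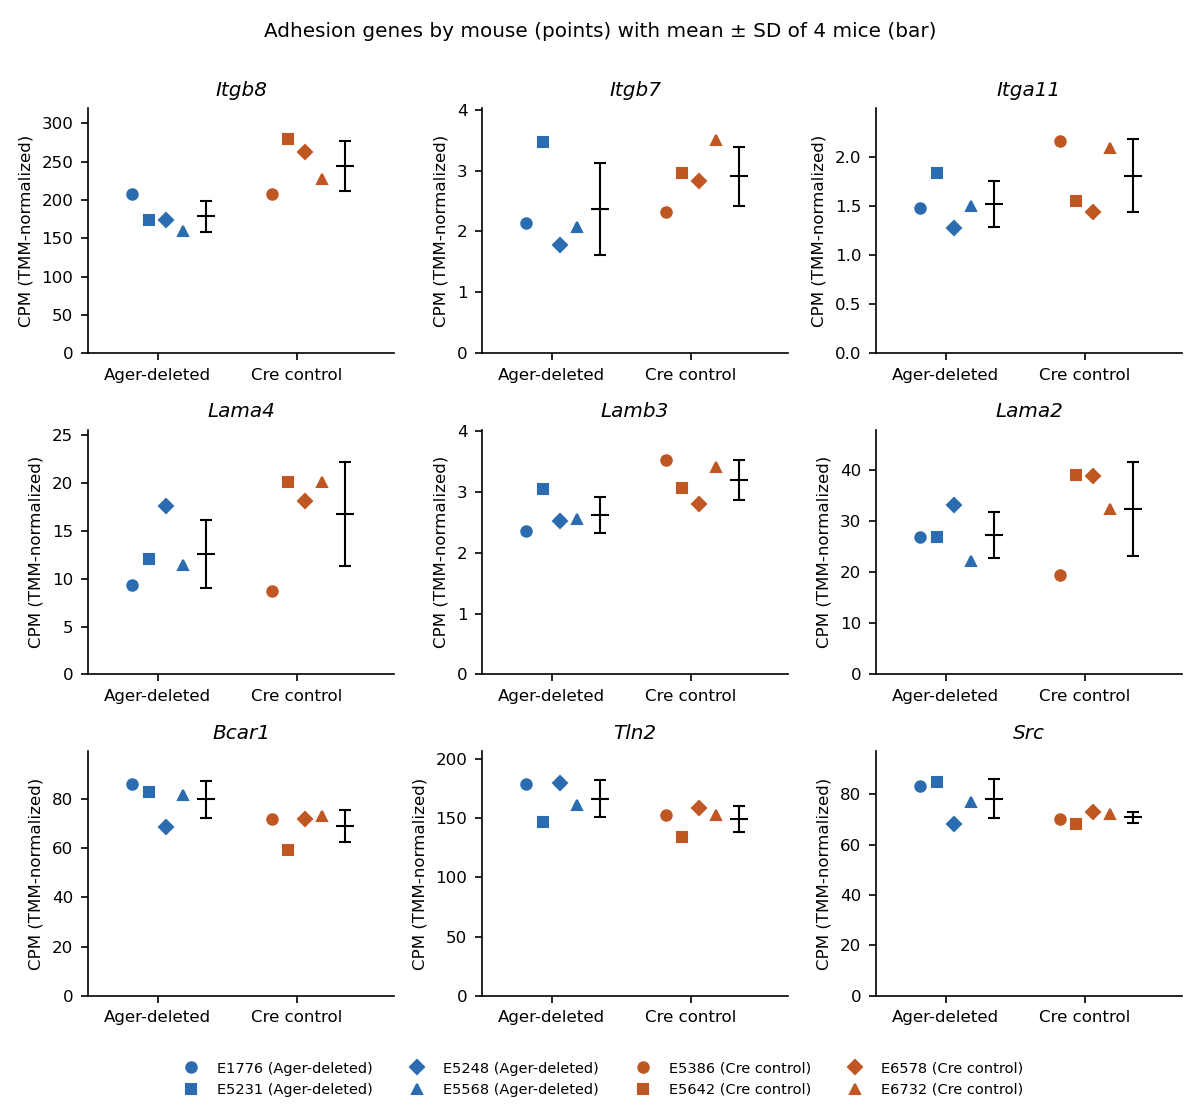
CPM (y axis, from 0) of the 3 members with the largest log2 fold change in each class, with a point for each of the 4 *Ager*-deleted and 4 control mice and a bar for mean ± SD. *Itgb8* is the gene whose groups do not overlap, with 160 to 208 CPM in deleted mice and 208 to 280 CPM in controls, and *Lama4* and *Lama2* each have a control (E5386) below all deleted mice.

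The matrix ligands were led per length by the vessel-wall laminin chain *Lamb2* (15.5 CPM per kb), *Fn1*, encoding fibronectin (14.9 CPM per kb), and *Lamc1*, the γ chain of most laminins (10.2 CPM per kb). Each overlapped the next over mice, and *Lamc1* stood clear of the ligands below it, from *Lama5* at 3.20 down to *Lama3* at 0.373 CPM per kb. *Lamb2* ranged from 77.8 to 117 CPM in deleted mice and from 88.5 to 98.4 CPM in controls, and *Lamc1* from 80.2 to 85.2 against 71.6 to 95.4 CPM. *Fn1* was at 209, 199, 131 and 134 CPM in deleted mice and at 189, 162, 147 and 222 CPM in controls, with wide spread in both groups. Its highest value was in E6732, the control with high *Alb*, and the part of liver RNA in it was not tested. *Lama5*, the α chain of mature vessel walls, was at 37.0, 36.6, 30.5 and 33.0 CPM in deleted mice and at 38.9, 35.4, 43.0 and 37.5 CPM in controls, with 3 of 4 controls above every deleted mouse (exact permutation p = 0.114). *Lama1*, an α chain of the pial basement membrane, ranged from 4.90 to 6.91 CPM against 4.38 to 7.12 CPM, and the epithelial chain *Lama3* from 3.88 to 4.52 CPM against 3.22 to 4.72 CPM.

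*Lama4*, *Lamb3* and *Lama2* had the largest differences among the ligands. *Lama4*, an α chain of endothelial and perineurial basement membrane, was at 9.32, 12.0, 17.6 and 11.4 CPM in deleted mice and at 8.72, 20.0, 18.1 and 20.1 CPM in controls. Its log2 fold change was −0.41 (SE 0.26, adjusted p = 1, edgeR's exact test), and 3 of 4 controls lay above every deleted mouse while the other was the lowest of all. *Lama2*, the α chain of Schwann cell, meningeal and muscle basement membrane, was at 26.8, 26.8, 33.0 and 22.1 CPM against 19.4, 39.0, 38.9 and 32.4 CPM. Its log2 fold change was −0.25 (SE 0.20), and again E5386 was lowest. *Lamb3*, an epithelial β chain, was at 2.36, 3.05, 2.51 and 2.56 CPM against 3.53, 3.06, 2.80 and 3.40 CPM (log2 fold change −0.29, SE 0.14). The groups of *Lamb3* overlapped through E5231 and E6578, and its exact permutation p was 0.0571.

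The control E5386 had the lowest level of the 8 mice for 6 of 10 laminin genes. *Lamb1*, a β chain of meningeal and Schwann cell laminins, was at 14.6, 21.5, 31.1 and 23.1 CPM in deleted mice and at 10.4, 32.9, 33.8 and 30.0 CPM in controls (log2 fold change −0.24, SE 0.33). *Lamc3*, a γ chain, was at 7.52, 8.81, 10.4 and 7.99 CPM against 4.38, 11.1, 13.9 and 10.5 CPM (log2 fold change −0.19, SE 0.28). Both genes were chosen after their values were seen. In each, E5386 was far below the other controls, and the other 3 controls were near or above the upper end of the deleted mice.

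Summed markers of meninges and nerve roots, and of lumbar position, were also lowest in E5386. The sum of 15 meningeal fibroblast markers was 467 to 692 CPM in deleted mice, 300 CPM in E5386 and 786 to 950 CPM in the other controls, and 13 of the 15 were lowest in E5386. The sum of 15 Schwann cell and nerve root markers was 1360 to 2229 CPM in deleted mice, 1004 CPM in E5386 and 1949 to 2394 CPM in the other controls. Of these 15, 10 were lowest in E5386, and *Mal*, *Pou3f1*, *Cdh19*, *Cadm2* and *Sox10* were not. The sum of 6 lumbar Hox genes was 114 to 170 CPM in deleted mice, 97.7 CPM in E5386 and 116 to 141 CPM in the other controls, and 6 of 6 were lowest in E5386. The sum of 13 pericyte and smooth muscle markers was 368 to 461, 355 and 406 to 464 CPM in the same order, but only 3 of the 13 were lowest in E5386. The endothelial sum was not lowest in E5386 (530 to 665 CPM in deleted mice, 545 CPM in E5386 and 557 to 680 CPM in the other controls). Of its 13 markers, 3 were lowest in that mouse. No list had a marker at 0 in all mice, and the part of these cell types, or of cord position, in the laminin levels was not tested.

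Without E5386, the exact test gave an unadjusted p under 0.05 for 4 of 11 ligands, beside 5.73% of all genes tested in those 7 mice. E5386 was the lowest of all mice for each of these 4 ligands, so leaving it out lowers their fold changes by construction. Counts of ligands without E5386 therefore carry no test. The log2 fold changes in edgeR's exact test were then −0.63 for *Lama4* (adjusted p = 0.217), −0.44 for *Lama2* (adjusted p = 0.26), −0.52 for *Lamb1* (adjusted p = 0.558) and −0.45 for *Lamc3* (adjusted p = 0.527), and none was called. Other mice moved them towards 0: *Lamb1* was at −0.08 without E1776 and at −0.11 without E6578, *Lama2* at −0.15 and *Lamc3* at 0.01 without E6578, and *Lama4* at −0.29 without E1776. The deleted mice ranged from 9.32 to 17.6 CPM for *Lama4*, against 18.1 to 20.1 CPM in the remaining controls. Without both controls that held muscle transcripts, E5386 and E5642, the same 4 ligands and *Itgb8* had an unadjusted p under 0.05 (3.78% of all genes) and again none was called. In that comparison the log2 fold changes were −0.61 for *Lama4*, −0.40 for *Lama2*, −0.50 for *Lamb1* and −0.49 for *Lamc3*.

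**Figure D4:**
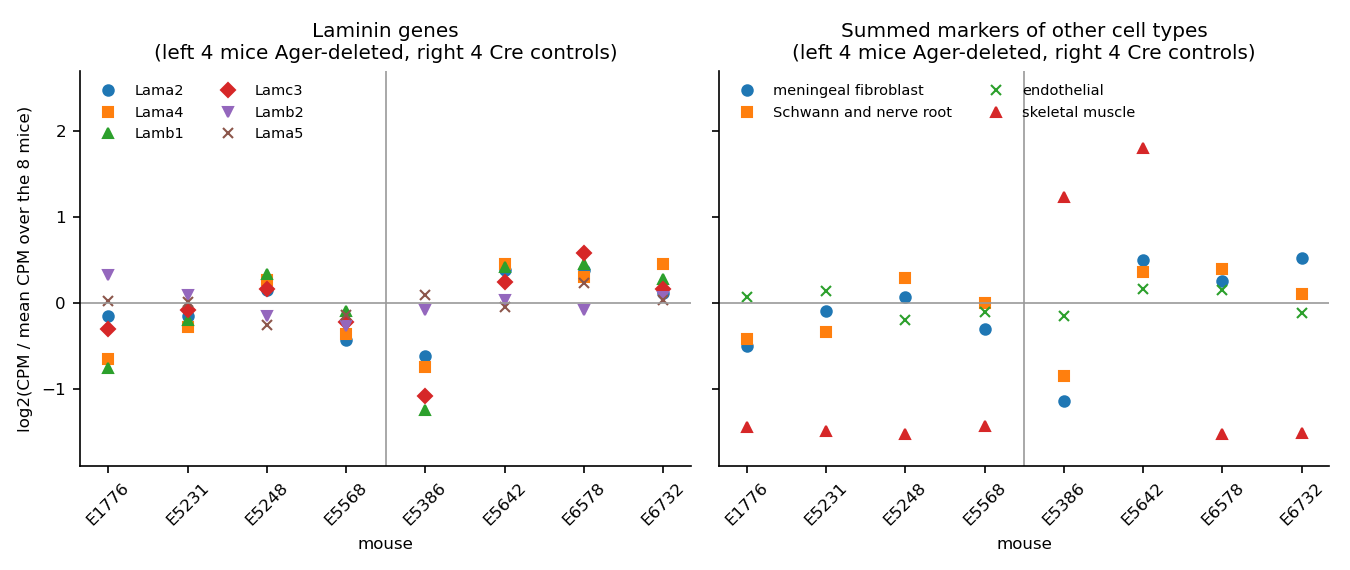
Level in each mouse relative to the mean of the 8 mice (y axis, log2 of the CPM ratio; x axis, mice with the 4 *Ager*-deleted on the left and the 4 controls on the right) for 6 laminin genes (left panel) and for summed markers of 4 other cell types (right panel). In E5386 *Lama2*, *Lama4*, *Lamb1* and *Lamc3* are lowest, as are the meningeal (300 CPM) and Schwann cell (1004 CPM) sums, whereas *Lamb2*, *Lama5* and the endothelial sum stay within ±0.5 in every mouse.

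Of the 11 adaptors and kinases, none differed between genotypes past the threshold. In this class 10 had a 95% interval within ±0.5, beside 12745 of all 19470 genes tested. Per length *Fermt2*, the widely expressed kindlin, led with 25.9 CPM per kb, followed by *Tln1*, encoding the broadly expressed talin (19.8 CPM per kb), and *Parva*, encoding α-parvin (17.3 CPM per kb). The range of *Fermt2* stood above that of *Tln1*, and *Tln1*, *Parva*, *Src* and *Bcar1* each overlapped the next. *Fermt2* was at 133 ± 5.83 CPM in deleted mice and 136 ± 3.54 CPM in controls (SD, n = 4 each), and its highest mouse was 1.11-fold above its lowest. *Tln1* was at 194 ± 31.2 CPM in deleted mice and 194 ± 10.8 CPM in controls. *Ptk2*, encoding FAK, was at 85.3 ± 5.15 against 84.9 ± 3.20 CPM and *Parva* at 177 ± 8.98 against 174 ± 10.2 CPM. *Vcl*, encoding vinculin, and *Pxn*, encoding paxillin, ranged from 51.3 to 67.8 CPM and from 60.4 to 74.0 CPM over the 8 mice, with overlapping groups. *Ilk*, encoding integrin-linked kinase, was the lowest of the class at 1.09 CPM per kb (2.82 to 3.26 CPM in deleted mice and 1.94 to 3.77 CPM in controls), but 89.7% of its exon bases lie opposite another gene and its level is uncertain. *Vcl* has such an overlap over 25.5% of its exon bases.

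*Bcar1*, *Tln2* and *Src* were the adaptors and kinases with the largest differences, each higher on average in deleted mice. *Bcar1*, encoding the scaffold p130Cas that Src phosphorylates, was at 86.1, 82.6, 68.7 and 81.6 CPM in deleted mice and at 71.7, 59.1, 71.9 and 72.9 CPM in controls. Of the deleted mice, 3 lay above all controls and E5248 lay among them. Its log2 fold change was 0.21 (SE 0.09, 95% interval 0.01 to 0.41), with p = 0.0522 in edgeR's exact test and 0.0405 in its quasi-likelihood test, which adjustment raised to 0.742. The log2 fold change of *Bcar1* was 0.14 without E5642, 0.13 without E5386 and E5642 and 0.13 with a skeletal muscle score as a covariate, with an unadjusted p above 0.05 in each. *Tln2*, the talin enriched in brain and muscle, was at 179, 147, 179 and 161 CPM against 152, 134, 159 and 153 CPM (log2 fold change 0.16, SE 0.08). *Src* was at 83.4, 84.9, 68.2 and 76.8 CPM against 70.2, 68.3, 73.1 and 72.0 CPM (log2 fold change 0.14, SE 0.07). The groups overlapped for both, and their adjusted p in edgeR's exact test was 1. Without E5642, *Tln2* was at 0.10.

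**Figure D5:**
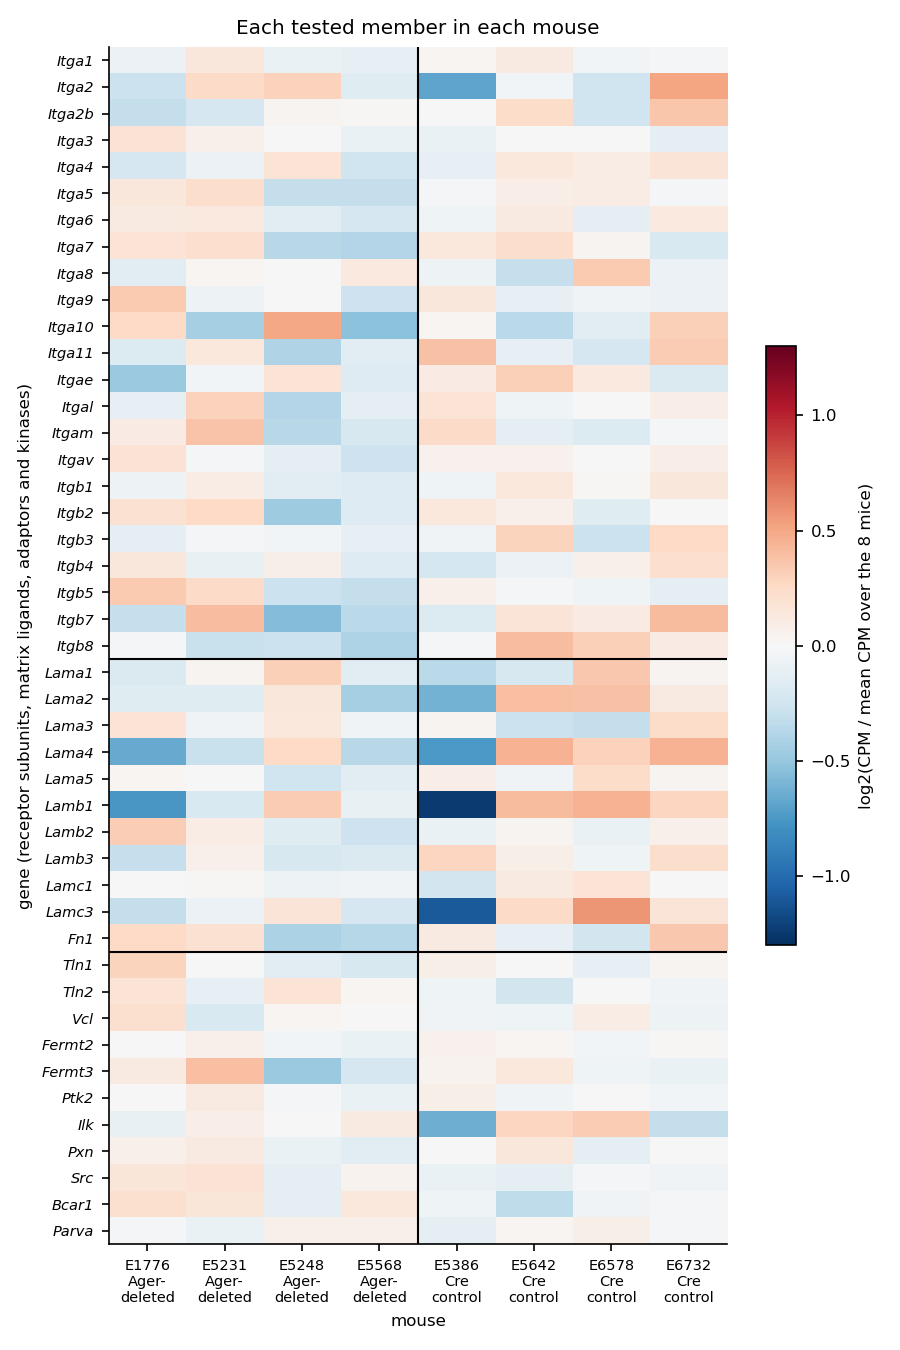
Each tested member (y axis, in the order receptors, matrix ligands, adaptors and kinases) in each of the 8 mice (x axis, 4 *Ager*-deleted then 4 controls), coloured by log2 of its CPM over its mean CPM of the 8 mice. The *Lamb1* and *Lamc3* levels of E5386 stand out as low, and the leukocyte genes *Itgam*, *Itgb2*, *Itgal* and *Fermt3* are each lowest in E5248. Adaptor genes other than *Fermt3* and *Ilk* differ by at most 1.46-fold between mice.

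A further 71 genes of the pathway, listed from general knowledge, were counted beside the members: 9 receptors, 20 matrix proteins and counter-receptors, and 42 adaptors, regulators and kinases. Of these, 69 were tested, and none passed the adjusted threshold in edgeR's exact test or quasi-likelihood test. Their median log2 fold change was −0.02, with 42 below 0 and 27 above, and 56 had a 95% interval within ±0.5. Over all 19470 genes tested, 9348 lay below 0 and 12745 had such an interval. The exact test gave an unadjusted p under 0.05 for 2 of 69, *Itgb1bp2* and *Pdlim5*, beside 4.26% of all genes. The quasi-likelihood test gave it for 4, also *Icam2* and *Rap1b*, beside 6.71%, so both counts were near the background. *Icam2*, a counter-receptor on endothelium, was at 2.29 to 3.96 CPM in deleted mice and 1.91 to 2.33 CPM in controls, and *Rap1b*, a GTPase that promotes talin recruitment, was at 71.5 to 79.8 against 77.4 to 92.8 CPM. *Git2*, a paxillin-binding regulator of Arf GTPases, was the single one of 69 whose groups did not overlap, beside 3.88% of all genes. It was at 67.8 to 75.3 against 64.0 to 65.6 CPM. Its exact permutation p of 0.0286 follows from that separation and adds no support. For *Git2*, edgeR's exact test gave p = 0.166 and its quasi-likelihood test p = 0.0644, both unadjusted. *Icam2*, *Rap1b* and *Git2* were chosen after their values were seen.

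*Itgb1bp2* encodes melusin, a muscle protein that binds the tail of the integrin β subunit encoded by *Itgb1*, and lies on chromosome X at 101449088 to 101453541. It was at 0.381, 0.3504, 0.395 and 0.388 CPM in deleted mice and at 3.23, 2.44, 0.585 and 0.340 CPM in controls. The raised controls were thus the 2 cords with high muscle markers, and the other controls were near the deleted mice. Its log2 fold change was −2.11 (SE 0.63; adjusted p = 0.22 in edgeR's exact test and 0.0353 with common and tagwise dispersions), and without E5386 and E5642 it was −0.26 (adjusted p = 1). *Pdlim5*, a PDZ and LIM domain protein of the actin cytoskeleton, was at 75.6, 77.1, 71.3 and 67.5 CPM against 81.7, 90.0, 76.0 and 83.2 CPM (log2 fold change −0.18, SE 0.07; adjusted p = 1, edgeR's exact test). Its groups overlapped through E5231 and E6578.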

How the data were processed

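RNA-seq of 8 lumbar spinal cords (4 per genotype, by the genotype in the labels) was used. The authors deposited raw counts per gene, and the submitters' processing notes name Trimmomatic 0.36, STAR 2.7.3a, SAMtools, featureCounts (Subread 1.6.3) and edgeR 3.26.8 with mm10. The study's methods name GENCODE M25. The strand setting of the counting is not given in the sources used here, although the kit keeps strand, so overlapping genes may share reads. A deposited table of log2 CPM after TMM normalization, also made by the authors, served only to check the filter and normalization, both recomputed with a prior count of 2 (19470 genes, largest difference 4.78e-06). No column of another sample was left unused (0).

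Counts ranged from 31148047 to 40324897 per mouse. Genes were kept by filterByExpr (minimum 10 counts), normalized by TMM and tested in edgeR 4.0.16 (R 4.3.3) by the exact test, as the study's methods name, with estimateDisp without a design matrix. The study's methods do not state how dispersions were estimated. The exact test run here called fewer genes than the study reported, whereas common and tagwise dispersions gave the same number as the study. The quasi-likelihood test gave SE and 95% intervals. Benjamini-Hochberg adjustment ran over all genes tested, with a threshold of 0.05. CPM per mouse, as log2(CPM + 1), was compared by an exact two-sided permutation over 70 assignments. Each mouse is an animal with its own ID. The limit of 3 counts covers counting error only.

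The members and lists were chosen with earlier results of these data known. Genes named with fold changes were members past a threshold or without overlap, the 3 with the largest change in each class, and pathway genes past an adjusted threshold or past an unadjusted p in both tests; the text says where a gene was picked with its values in view. Positions and exon lengths are from GENCODE M21 on GRCm38 (46 of 46 members matched by symbol), an earlier release than the authors' own, and promoters from RefSeq (GRCm38.p6). Scripts were tested on simulated data. Alternatives were DESeq2 1.42.0, limma-voom (limma 3.58.1), other dispersions, normalizations and filters, a skeletal muscle score as a covariate, and mice left out.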

Additional observations from a re-analysis of the deposited data

Results flagged for a closer look

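Dixon's ratio of the gap to the range was taken in 102 groups of 4 mice. These include the 45 tested members and the 5 pathway genes singled out in the text, per genotype. *Itgb6* did not pass the filter and is not among these members. The ratio passed its 95% critical value in 6 groups, where chance gives about 5%. *Lamb1* was at 10.4 CPM in the control E5386 against 30.0 to 33.8 CPM in the other controls. *Bcar1* was at 59.1 CPM in the control E5642 against 71.7 to 72.9 CPM in the others. *Vcl* was at 62.6 CPM in the control E6578 against 56.1 to 56.8 CPM in the others. *Itga1*, a collagen receptor subunit, was at 21.2 CPM in the deleted mouse E5231 against 17.6 to 18.01 CPM in the other deleted mice, and *Icam2* was at 3.96 CPM in the same mouse against 2.29 to 2.57 CPM. *Git2* was at 75.3 CPM in the deleted mouse E1776 against 67.8 to 69.0 CPM in the others.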

How the results depend on the processing

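The class medians of the log2 fold change stayed within the spread between mice under all 18 alternatives (receptors −0.13 to −0.02, ligands −0.24 to −0.11, adaptors 0.01 to 0.05), and none of the 18 brought a change of direction in a named gene except that *Lamc3* was at 0.0107 without E6578 (range −0.45 to 0.0107 with 1 mouse left out). No member was called in any alternative with all 8 mice; leaving out 1 mouse gave 0 to 1 members called. The count of members with an unadjusted p under 0.05, 1 as reported, was 2 in the quasi-likelihood test, in DESeq2, in limma-voom, with library size only, with no filter, with at least 1 CPM in at least 4 mice and with the muscle score as a covariate, was 5 without E5386 and E5642 with either dispersion estimate, and 1 to 5 with 1 mouse left out. The main exact test called 14 of all 19470 genes tested. That count was 1 in the quasi-likelihood test, in limma-voom and with the covariate, 8 with at least 1 CPM and 25 in DESeq2. It was 78 with common and tagwise dispersions and 67 without E5386 and E5642 (88 with common and tagwise dispersions). With 1 mouse left out it was 3 to 98. The cause of these differences was not tested. The fit without E5386 and E5642 with common and tagwise dispersions was chosen after seeing the data.

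The log2 fold change of *Itgb8* ran from −0.53 to −0.39, with adjusted p from 0.00988 to 0.999. That of *Itgb1bp2* ran from −2.45 to −0.26, and its adjusted p in edgeR's exact test was 0.0255 without E6578 and 0.000685 without E6732. It was not tested with at least 1 CPM in at least 4 mice, since too few mice reach that level. No scaling moved the median of all genes by more than 0.03. No paired analysis was possible because the labels name each mouse by its own ID and give no number shared between genotypes.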

Other observations

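Among the pathway genes the text has not described, *Itgax*, the α chain of an integrin of activated microglia and dendritic cells, was at 71.4 to 112 CPM in deleted mice and 63.6 to 92.4 CPM in controls, so the groups overlapped. *Dag1*, encoding dystroglycan, a laminin receptor of astrocyte endfeet and Schwann cells, was at 166 to 195.1 CPM against 156 to 198 CPM and was lowest in E5386. *Vtn*, encoding vitronectin, was at 55.1 to 92.2 CPM against 39.9 to 115 CPM. It was also lowest in E5386 and was highest in E6732. *Fga*, a fibrinogen chain made in liver, had 21.3 CPM in E6732, the control with *Alb* transcripts, and at most 0.0926 CPM in the other mice. It did not pass the filter, and neither did *Fermt1*, the epithelial kindlin. These genes were chosen after their values were seen.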
